A study of Mus musculus with 8 samples.

Results

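Protocadherins, the largest group of the cadherin superfamily of adhesion proteins, were described in bulk RNA sequencing of the whole pituitary of old and young mice. Every row of the expression lists whose symbol starts with Pcdh was taken, which gave 70 protocadherin genes out of 49585 rows. The clustered protocadherins made up 58 of them, with 14 Pcdha, 22 Pcdhb and 22 Pcdhg genes, and the remaining 12 were single protocadherins such as Pcdh10. The symbol Pcdha11 stood on 2 rows, which are called Pcdha11.1 (ENSMUSG00000007440) and Pcdha11.2 (ENSMUSG00000102206) here.

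Old mice were 18–24 months of age and young mice 2–3 months, and each age had 4 libraries. All were wild-type C57BL/6 mice kept free of specific pathogens on a regular chow diet, and blood was flushed out by perfusion before polyadenylated RNA was taken from the pituitary. The study's methods speak of the pituitary of a mouse but do not say outright that each library came from 1 animal, so p-values measure the spread between these libraries. The libraries held 16098530 to 19272104 assigned fragments in old and 15042321 to 20429604 in young pituitary. Ribosomal RNA repeat genes took 33.8% to 38.1% of them in old and 33.8% to 40.3% in young pituitary. Hormone genes took 9.05% to 11.6% in old and 12.0% to 14.1% in young pituitary. Expression is given as FPKM, assigned fragments scaled to the length of the exons and to the library size, and was tested with limma on log2(FPKM + 0.1). Fold changes are old minus young on that log2 scale, which understates the change of low genes, and a gene was called at a Benjamini-Hochberg adjusted p under 0.05. Of 23498 genes tested, 436 were called higher in old pituitary, which is 1.86% of the genes, and 111 were called lower, which is 0.472%. These counts fell to between 64 and 327 higher and lay between 21 and 163 lower when any single library was left out. The middle gene had a log2 fold change of 0.15, which became 0.022 when library sizes were computed without the hormone genes and ribosomal RNA repeat genes. In the main fit 70.0% of all genes tested had a log2 fold change above 0. Gh averaged 24327 ± 3157 FPKM in old and 62323 ± 5846 FPKM in young pituitary (SD, n = 4 each), and Prl averaged 83140 ± 10695 FPKM in old and 82116 ± 4883 FPKM in young pituitary, so the hormone genes that define the labelled tissue were present.

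Protocadherins are membrane proteins whose extracellular cadherin repeats bind the same protein on a neighbouring cell. Each Pcdha and Pcdhg gene has its own large first exon, which encodes the extracellular, transmembrane and proximal cytoplasmic parts, and this exon is spliced to constant exons that all genes of the cluster share. Pcdhb genes have no constant exons and consist of a single exon. In neurons, A- and B-type genes of the clusters are switched on in varying combinations from cell to cell by CTCF- and cohesin-dependent promoter choice, whereas most C-type genes (Pcdhac1, Pcdhac2, Pcdhgc3, Pcdhgc4 and Pcdhgc5), which lie at the end of their clusters, are used more evenly. Single protocadherins are spread over the genome, and several of them bind the WAVE complex, which drives branching of actin.

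Pcdh10, a single protocadherin that recruits the WAVE complex and guides axon growth and cell movement in mice, fell in old pituitary and was the only single protocadherin called. Its level was 0.340, 0.303, 0.585 and 0.547 FPKM in the 4 old libraries, against 1.86, 1.75, 1.97 and 1.97 FPKM in the 4 young libraries. The groups did not overlap, and every old library was below every young one. These values rest on 87, 89, 179 and 152 fragments in old and 507, 418, 638 and 572 fragments in young pituitary. The log2 fold change was -1.90 with a standard error of 0.19 (adjusted p = 0.00977, limma). Pcdh10 stayed called lower without each of the 8 libraries in turn, with adjusted p between 0.0138 and 0.0370. In bulk RNA, fewer cells of a type cannot be told apart from less RNA per cell. The antisense gene 1700027H10Rik overlaps 154 of the 15888 exon bases of Pcdh10, and it had 0.278 to 0.851 FPKM in old and 0.671 to 2.81 FPKM in young pituitary.

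Of the 12 single protocadherins, 9 had a promoter window in RefSeq (build GRCm38.p6), which runs from 250 bases before the transcription start to 50 bases after it. The windows of Pcdh10, the called gene, and of Pcdh17, which had the next lowest fold change among the single genes, are printed to show a sequence that belongs to the Pcdh10 result beside that of a gene that was not called. Both are on the plus strand, and CpG dinucleotides, the sites of DNA methylation, are in capitals.
Pcdh10, chr3:45378148-45378447: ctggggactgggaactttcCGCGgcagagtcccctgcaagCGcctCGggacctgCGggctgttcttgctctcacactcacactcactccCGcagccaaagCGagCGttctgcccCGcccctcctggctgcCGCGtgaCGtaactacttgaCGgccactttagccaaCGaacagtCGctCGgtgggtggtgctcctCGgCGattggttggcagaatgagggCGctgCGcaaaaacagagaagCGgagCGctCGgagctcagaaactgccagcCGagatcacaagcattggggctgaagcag
Pcdh17, chr14:84443313-84443612: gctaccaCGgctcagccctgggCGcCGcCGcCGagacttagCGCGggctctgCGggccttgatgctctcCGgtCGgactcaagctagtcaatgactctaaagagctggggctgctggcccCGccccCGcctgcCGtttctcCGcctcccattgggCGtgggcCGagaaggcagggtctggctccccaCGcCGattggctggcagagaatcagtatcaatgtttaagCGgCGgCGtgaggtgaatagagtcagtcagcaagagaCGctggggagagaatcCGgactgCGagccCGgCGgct
The Pcdh10 window holds 24 CpG and the Pcdh17 window 26, against a median of 7 in all 32851 windows of that length. Of all windows, 80.0% hold fewer CpG than that of Pcdh10 and 83.1% fewer than that of Pcdh17. Windows of the other single genes hold 4 to 23. The letters TGACGT, the core of the cyclic AMP response element, were found in the Pcdh10 window and in none of the other 8 genes, on either strand. They stand in 7.51% of all windows. The letters CCAAT, searched on both strands, were in both windows and in 37.4% of all windows, and the 2 motifs share no bases. Among the single genes with a window, only Pcdh7 lacked CCAAT. A match is a description of the sequence and not a bound site.

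The other single protocadherins were led by Pcdh1, an adhesion protein of epithelia, and by Pcdh9 of the nervous system, and none of them was called. Pcdh1 had 4.45, 5.68, 6.44 and 6.35 FPKM in old and 4.44, 3.81, 4.84 and 5.14 FPKM in young pituitary, with overlapping groups (log2 fold change 0.32 ± 0.15 SE, limma adjusted p = 0.277). Pcdh9 had 3.83, 4.92, 3.62 and 7.39 FPKM in old and 2.97, 4.15, 3.26 and 3.14 FPKM in young pituitary, where old library 4 was the highest (0.49 ± 0.24, adjusted p = 0.276). Pcdh17, which acts at synapses, had 1.86, 2.33, 1.75 and 2.53 FPKM in old and 2.35, 2.54, 3.56 and 3.35 FPKM in young pituitary (-0.45 ± 0.18, adjusted p = 0.201), so the old libraries were mostly the lower ones but reached into the range of the young.

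Pcdh20 averaged 3.36 ± 0.73 FPKM in old and 2.73 ± 0.63 FPKM in young pituitary (SD, n = 4 each), and Pcdh7 averaged 1.68 ± 0.27 and 1.96 ± 0.27 FPKM in old and young pituitary. The exons of Pcdh7 overlap those of 4932441J04Rik on the opposite strand over 2235 bases, and how strand entered the counting is not given in the sources used here. Pcdh12, an endothelial protocadherin, averaged 0.609 ± 0.086 FPKM in old and 0.643 ± 0.207 FPKM in young pituitary. Pcdh8, Pcdh11x, Pcdh18 and Pcdh19 averaged 0.233 to 1.11 FPKM in old and 0.210 to 1.07 FPKM in young pituitary, and Pcdh15, a protein of the hair cells of the inner ear, stayed under the filter with 0.0371 to 0.0601 FPKM in old and 0.0419 to 0.129 FPKM in young pituitary. Of the 11 single genes tested, 6 had a log2 fold change above 0 and the median was 0.015. Of all genes tested 70.0% were above 0, with a median of 0.15. In the plot of single protocadherins by library, Pcdh10 is the gene whose groups are apart.

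**Figure D1:**
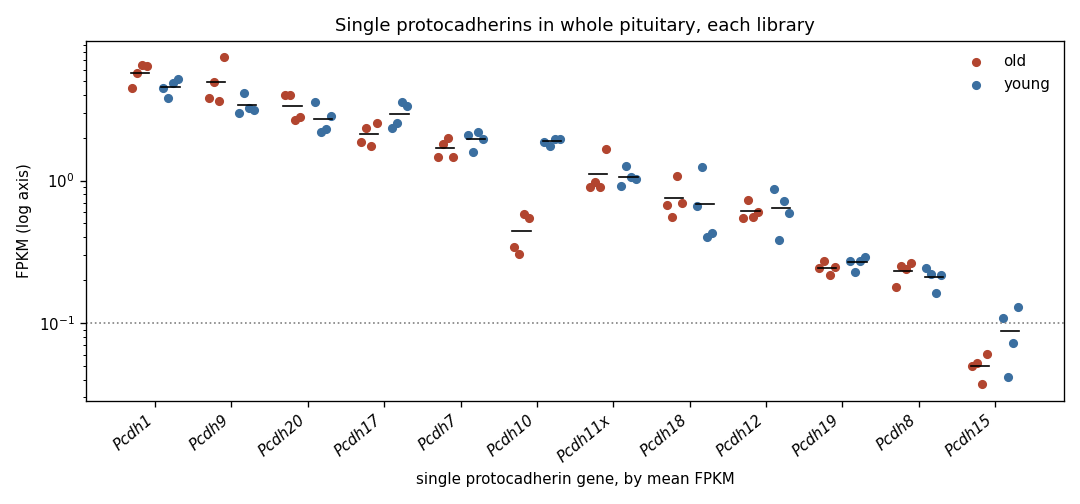
FPKM of the 12 single protocadherins on a log axis, with each point a library, the black line the mean of 4 libraries and the dotted line the filter of 0.1 FPKM. Old libraries stand left of young ones, and only Pcdh10 has groups that do not overlap, at 0.303 to 0.585 FPKM in old and 1.75 to 1.97 FPKM in young pituitary.

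The 22 Pcdhb genes stand on chromosome 18 (GRCm38), between the Pcdha and Pcdhg clusters. Each is a single exon that shares no bases with another protocadherin, apart from 455 bases that Pcdhb21 and Pcdhb22 share. Genes on the other strand can still overlap a member, as given for Pcdhb12 below. Windows of 100 bases found in any other protocadherin made up 0% to 2.24% of the transcript in the other 20 genes. Their summed level was 33.2 to 40.5 FPKM in old and 21.2 to 29.2 FPKM in young pituitary, without overlap. With library sizes computed without hormone and ribosomal RNA repeat genes, the ranges nearly met, at 32.0 to 36.8 and 23.1 to 31.9 FPKM. With median-of-ratios scaling they overlapped, at 31.2 to 36.6 FPKM in old and 23.6 to 31.9 FPKM in young pituitary. Of the 22 genes, 18 had a log2 fold change above 0 and the median was 0.35, against 70.0% and 0.15 for all genes. In each of these 2 scalings 14 were above 0, with medians of 0.23 and 0.21. Pcdhb8 and Pcdhb11 were called higher and none was called lower by limma, against 1.86% and 0.472% of all genes. Of the 22 genes, 10 were higher and 1 was lower at an unadjusted p under 0.05, against 18.0% and 3.79% of all genes, and voom called 5 higher and 1 lower, against 6.03% and 1.49%. In 8 genes every old library was above every young one and in 1 gene below, against 13.4% and 2.06% of all genes tested.

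Pcdhb8 (chromosome 18, 37355121 to 37358604) rose in old pituitary. It had 1.60, 1.21, 1.09 and 1.39 FPKM in the old libraries and 0.451, 0.324, 0.323 and 0.534 FPKM in the young libraries, so that every old library had over 2 times the level of every young one. The fragments behind these values numbered 90, 78, 73 and 85 in old and 27, 17, 23 and 34 in young pituitary. The log2 fold change was 1.50 ± 0.18 (SE, limma adjusted p = 0.0145), and Pcdhb8 stayed called without each of the 8 libraries in turn, with adjusted p up to 0.0457.

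Pcdhb11 (chromosome 18, 37421418 to 37425836) also rose. It had 3.20, 2.34, 4.04 and 3.01 FPKM in the old libraries, which varied more than the 1.33, 1.26, 1.09 and 1.26 FPKM of the young libraries. Fragments numbered 228, 191, 344 and 233 in old and 101, 84, 98 and 102 in young pituitary. The log2 fold change was 1.26 ± 0.17 (SE, limma adjusted p = 0.0188). The call was lost without young library 1 (adjusted p = 0.0501), without young library 3 (0.0586) and without old library 1 (0.0562), with log2 fold changes between 1.21 and 1.30.

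Pcdhb16 and Pcdhb14 lay just outside the threshold. Pcdhb16 had 1.19, 1.31, 1.53 and 1.41 FPKM in old and 2.24, 1.73, 2.47 and 2.26 FPKM in young pituitary, with every old library below every young one (log2 fold change -0.63 ± 0.13 SE, limma adjusted p = 0.0567). Of the genes beside it, Pcdhb17 had a log2 fold change of -0.30 and Pcdhb15 one of 0.053, both with overlapping groups. Pcdhb16 was called lower with both other scalings of the libraries (adjusted p = 0.0261 and 0.0216) and without young library 2 (0.0384). Pcdhb14, the Pcdhb gene with the most fragments, had 2.54, 3.22, 3.09 and 3.25 FPKM in old and 1.77, 1.13, 1.83 and 1.94 FPKM in young pituitary (0.84 ± 0.18, adjusted p = 0.0568). Pcdhb14 was called higher without young library 2 (adjusted p = 0.0465) but with neither other scaling.

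Pcdhb6 had 2.90, 2.71, 3.21 and 2.45 FPKM in old and 1.72, 0.921, 1.10 and 2.00 FPKM in young pituitary (log2 fold change 0.98 ± 0.24 SE, limma adjusted p = 0.0759). Pcdhb2 had the highest level of the family, with 4.31, 4.17, 5.11 and 5.04 FPKM in old and 3.93, 2.29, 2.91 and 2.70 FPKM in young pituitary (0.66 ± 0.17, adjusted p = 0.0890). The libraries of both genes did not overlap, and each was called higher in some alternatives, Pcdhb6 among them with voom (adjusted p = 0.00792) and Pcdhb2 too (0.0175). Pcdhb12, Pcdhb13 and Pcdhb22, named for their values, also had every old library above every young one, but were called in no fit. Pcdhb12 had 1.21 to 1.93 FPKM in old and 0.592 to 1.05 FPKM in young pituitary. Of its 3034 exon bases, 1927 overlap the antisense gene Gm37446, which had 0.751 to 1.18 FPKM in old and 0.354 to 0.635 FPKM in young pituitary.

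**Figure D2:**
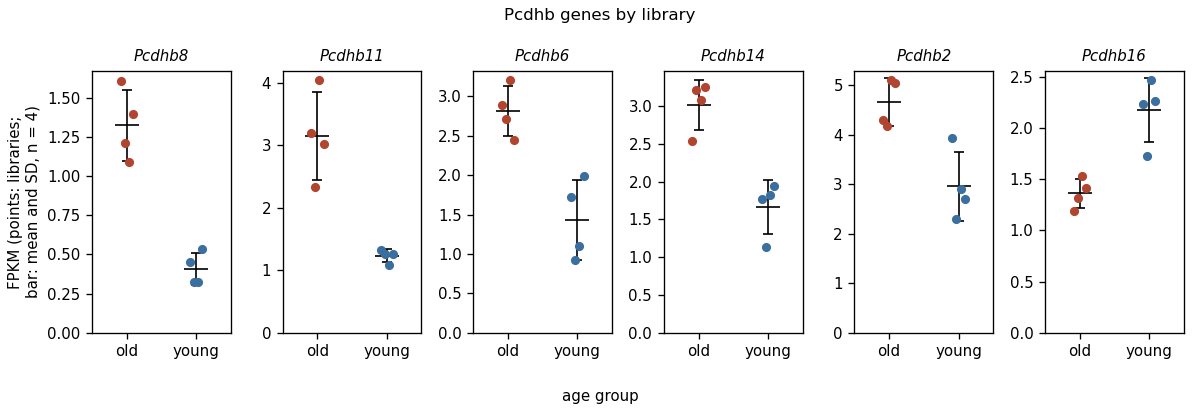
FPKM of 6 Pcdhb genes in the 4 old (left) and 4 young (right) libraries, with the mean and SD, on axes that start at 0. Pcdhb8 and Pcdhb11 passed the test as higher in old pituitary, Pcdhb6, Pcdhb14 and Pcdhb2 had old libraries above the young ones, and Pcdhb16 had them below.

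The Pcdhb genes were also looked at by place along the cluster. The first 14 genes, Pcdhb1 to Pcdhb14, all had a log2 fold change above 0, with a median of 0.58 and ratios of mean FPKM, old over young, between 1.07 and 3.25. The last 8 genes, Pcdhb15 to Pcdhb22, had 4 above 0, a median of 0.023 and ratios between 0.626 and 1.36. Of all genes tested, 70.0% were above 0. The boundary was placed after the values were seen, so no test was run on it. With each of the other scalings, 13 of the first 14 and 1 of the last 8 genes remained above 0.

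**Figure D3:**
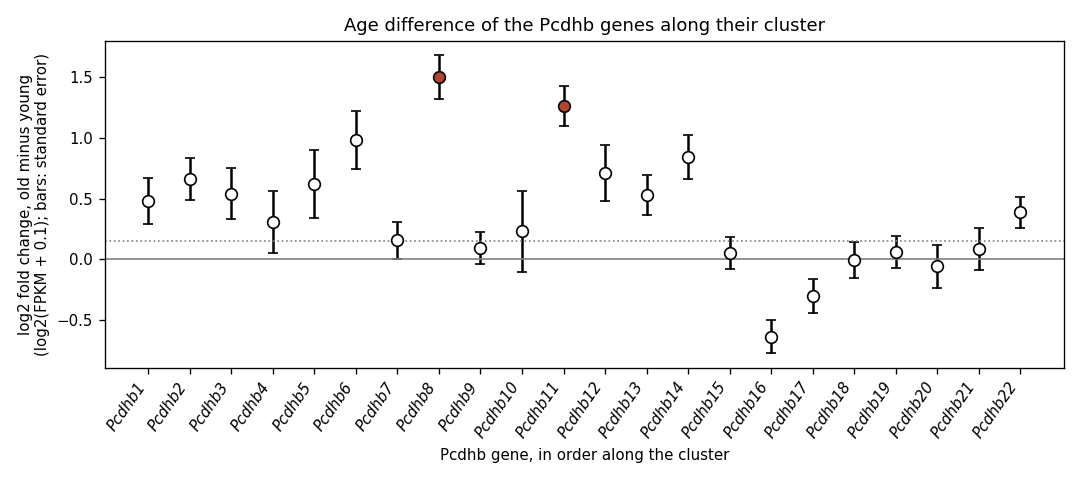
Log2 fold change (old minus young, with its standard error) of the 22 Pcdhb genes in their order along the cluster. Filled points are the called genes Pcdhb8 and Pcdhb11, the solid line is 0 and the dotted line is the median of all genes tested, 0.15.

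The Pcdha and Pcdhg genes were measured differently. All 14 Pcdha genes share 2860 exon bases and all 22 Pcdhg genes share 2116, and fragments in these common exons had been counted for every member. The member with the fewest fragments had 74.6% to 87.1% of the fragments of the highest member in the Pcdha cluster and 83.1% to 90.0% in the Pcdhg cluster. The FPKM of such a gene is therefore mainly the level of its cluster, and its 14 or 22 members are not separate measurements. The median Pcdha level was 9.70 ± 0.52 FPKM in old and 7.81 ± 1.23 FPKM in young pituitary, and the median Pcdhg level was 49.0 ± 3.2 FPKM in old and 43.1 ± 3.5 FPKM in young pituitary (SD, n = 4 each).

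On these deposited values no Pcdha or Pcdhg gene was called, with limma adjusted p from 0.138 to 0.245 in Pcdha and from 0.253 to 0.549 in Pcdhg. At an unadjusted p under 0.05, 11 Pcdha and 0 Pcdhg genes were higher, against 18.0% of all genes. With voom on fragments, 1 Pcdha gene, Pcdha11.1, was called (log2 fold change 0.41, adjusted p = 0.0394) and no Pcdhg gene. Voom called 6.03% of all genes higher. All 36 log2 fold changes were above 0, against 70.0% of all genes tested, with a median of 0.33 in Pcdha and 0.19 in Pcdhg. Every old library was above every young one in 35 of these 36 genes, the exception being Pcdhgc3, against 13.4% of all genes, but these genes repeat the same common exons and so come to 1 measurement per cluster. With the 2 other scalings the median Pcdhg level was 1.04 and 1.03 times as high in old as in young pituitary and its ranges overlapped. The median Pcdha level was then 1.135 and 1.123 times as high in old as in young pituitary, also with overlapping ranges. No Pcdha gene had a limma unadjusted p under 0.05 in either of these scalings. The 10 clustered genes with the highest mean, Pcdhgb6, Pcdhgb7, Pcdhga5, Pcdhga10, Pcdhga8, Pcdhga4, Pcdhga11, Pcdhgb8, Pcdhga6 and Pcdhga2, averaged 49.5 to 53.7 FPKM in old and 43.2 to 47.0 FPKM in young pituitary. They are all Pcdhg genes, and their order reflects exon length as well as expression.

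To separate the members, fragments above those of the lowest member of the cluster in the same library were counted. They are a lower limit for the fragments outside the common exons, and differences between members are exact. This was chosen after the data were seen. Pcdha1, the lowest Pcdha gene in every library, and Pcdhgb8, at 0 in 6 of 8 libraries, had too few such fragments to test. Of the 34 tested Pcdha and Pcdhg genes, Pcdhgb2 and Pcdhga7 were called higher and none lower. In that fit 439 of all genes were called higher, which is 1.87%, and 111 lower, which is 0.472%.

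All 5 C-type genes had a log2 fold change below 0 outside the common exons, with a median of -0.28, although none passed the test. Of the other Pcdha genes 10 of 11 tested were above 0, with a median of 0.48. Of the other Pcdhg genes 17 of 18 were above 0, with a median of 0.38. In the main fit 70.0% of all genes were above 0. With both other scalings all 5 C-type genes stayed below 0, while 9 of 11 and 14 of 18 of the others stayed above. Without young library 4, Pcdhac1 moved to 0.0085 and the other 4 stayed below 0.

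Pcdhgc3 had the most fragments outside the common exons of any member. They numbered 394, 481, 566 and 533 in old and 670, 545, 773 and 662 in young pituitary. As CPM, which scales fragments to the library total, this was 27.6 ± 2.8 in old and 37.3 ± 1.3 in young pituitary (SD, n = 4 each), without overlap (log2 fold change -0.44 ± 0.10 SE, limma adjusted p = 0.0686). With the other 2 scalings it was called lower, with adjusted p = 0.0331 and 0.0328. Its exons overlap the antisense gene BC037039 over 1559 bases. BC037039 had 7.52, 8.19, 9.55 and 10.5 FPKM in old and 12.0, 11.1, 11.8 and 11.2 FPKM in young pituitary, and without a strand setting the reads of the pair cannot be told apart.

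Pcdhgc5 had 35, 41, 44 and 83 fragments outside the common exons in old and 90, 111, 103 and 78 in young pituitary (log2 fold change -0.86 ± 0.26 SE, limma adjusted p = 0.118). Old library 4 was apart from the other old libraries, and without it Pcdhgc5 was called lower (-1.09, adjusted p = 0.0460). Pcdhgc4 had 181, 219, 246 and 153 in old and 223, 173, 307 and 268 in young pituitary (-0.28 ± 0.15, adjusted p = 0.312). The Pcdha genes of this type were closer to 0, with Pcdhac2 at 76, 82, 123 and 81 fragments in old and 84, 87, 124 and 91 in young pituitary (-0.11 ± 0.14, adjusted p = 0.684). Pcdhac1 had only 6 to 13 fragments in old and 5 to 20 in young pituitary.

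Among the other members, Pcdhgb2 had 144, 176, 177 and 184 fragments outside the common exons in old and 97, 99, 102 and 84 in young pituitary (log2 fold change 0.79 ± 0.13 SE, limma adjusted p = 0.0289). Pcdhga7 had 293, 280, 356 and 268 in old and 208, 149, 224 and 163 in young pituitary (0.67 ± 0.13, adjusted p = 0.0467). The groups of both genes were apart, but the calls were not firm. Pcdhgb2 stayed called only without young library 2 and was lost without each of the other 7 libraries (adjusted p 0.0591 to 0.0896) and with both other scalings (0.0797 and 0.0950). Pcdhga7 was lost without each of the 8 libraries (0.0683 to 0.115) and with both other scalings (0.117 and 0.138), and its exons overlap the antisense gene Gm37165 over 536 bases, which had 3.88 to 5.43 FPKM in old and 2.54 to 3.30 FPKM in young pituitary.

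Pcdha11.1 had 153, 186, 328 and 210 such fragments in old and 147, 83, 132 and 121 in young pituitary (log2 fold change 0.80 ± 0.21 SE, limma adjusted p = 0.0937), and it was the Pcdha gene with the most of them. Pcdha8, named for having the highest fold change, had 83, 56, 43 and 67 in old and 33, 9, 36 and 30 in young pituitary (1.17 ± 0.36, adjusted p = 0.123). Pcdha3, Pcdha8, Pcdha11.1 and Pcdha12 of the Pcdha cluster, and Pcdhgb2, Pcdhga6 and Pcdhga7 of the Pcdhg cluster, had all old libraries above all young ones in CPM, 7 of 34 genes, against 13.4% of all genes in FPKM. Pcdhgb1 and Pcdhga4 share 3154 exon bases and so count partly the same fragments.

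**Figure D4:**
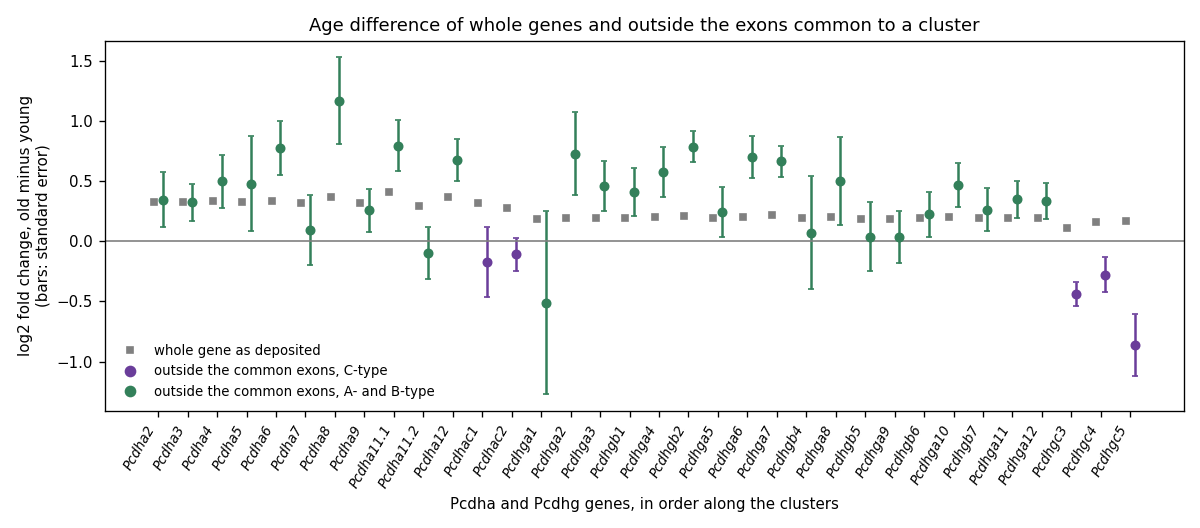
Log2 fold change (old minus young) of Pcdha and Pcdhg genes in their order along the clusters, for the whole gene as deposited (grey squares) and for fragments outside the common exons (circles with the standard error). Grey squares lie between 0.11 and 0.41, while the 5 C-type genes lie below 0 and most A- and B-type genes above it. Pcdha1 and Pcdhgb8 had too few fragments to plot.

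The share of C-type genes within a cluster does not depend on the scaling of libraries. It is computed from fragments above the lowest member, so both its parts are lower limits and the share is approximate. Fragments in the bases shared by Pcdhgb1 and Pcdhga4 enter the Pcdhg total for both genes. Of the fragments outside the common exons of the Pcdhg cluster, C-type genes held 19.8%, 24.4%, 21.2% and 23.5% in the old libraries, against 30.3%, 35.0%, 35.1% and 35.1% in the young libraries. In the Pcdha cluster they held 10.8%, 11.9%, 13.0% and 11.3% in old and 14.8%, 21.9%, 18.0% and 18.0% in young pituitary. Neither pair of groups overlapped. These are descriptions with no test, as the grouping was looked at with the values known.

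The difference in share was also present with Pcdhgc3 left out. Pcdhgc4 and Pcdhgc5 then held 8.02%, 10.2%, 8.35% and 8.60% of the remaining Pcdhg fragments in old and 12.2%, 15.6%, 15.8% and 15.6% in young pituitary. Pcdhga7, which overlaps the antisense gene Gm37165, stayed among these fragments, and the part of antisense reads in the shares was not tested. All fragments outside the common exons, summed over a cluster, were 0.842 to 1.06 times the lowest member's fragments in old and 0.747 to 0.932 times in young pituitary for Pcdha, and 0.750 to 0.873 times in old and 0.738 to 0.881 times in young pituitary for Pcdhg. The ranges of this ratio overlapped between the ages in both clusters. The own exons lie upstream of the common ones, and the part of coverage along the transcripts in these shares was not tested.

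**Figure D5:**
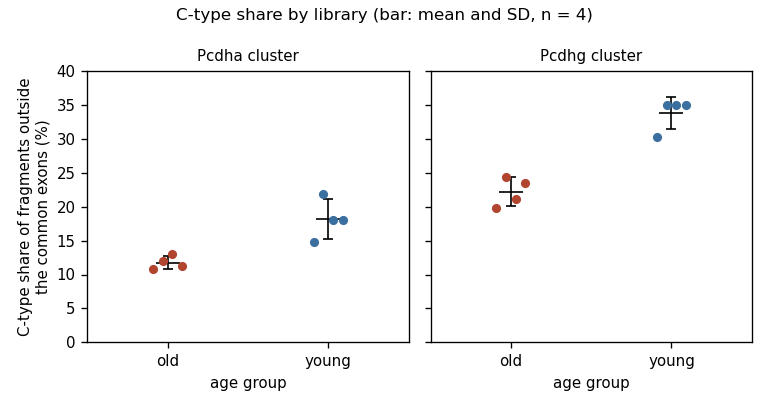
Share of the C-type genes, in percent, among fragments outside the common exons of the Pcdha cluster (left) and the Pcdhg cluster (right), with each point a library and the bar the mean and SD of 4. Old libraries lie at 10.8% to 13.0% in Pcdha and 19.8% to 24.4% in Pcdhg, below all young libraries.

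Genes that act with protocadherins were counted from lists. Of 18 genes for CTCF, cohesin and DNA silencing, which set promoter choice in the clusters, 0 were called by limma. The median log2 fold change was 0.13 beside 0.15 of all genes. Of these 18 genes, 4 had an unadjusted p under 0.05, against 18.0% higher and 3.79% lower of all genes. With voom 1 was called, against 6.03% higher and 1.49% lower of all genes. Rad21, the cohesin subunit with the highest level of the list, averaged 30.6 ± 1.6 FPKM in old and 24.6 ± 2.7 FPKM in young pituitary (SD, n = 4 each, limma adjusted p = 0.149), followed by Smc1a at 13.3 ± 1.0 and 12.1 ± 0.7 FPKM in old and young pituitary. Of 17 genes for partners and processing of protocadherins, 2 were called higher and none lower, against 1.86% and 0.472% of all genes. Ptk2b, the kinase Pyk2 that clustered protocadherins hold in check in neurons, averaged 8.17 ± 0.68 FPKM in old and 4.74 ± 0.59 FPKM in young pituitary (log2 fold change 0.78 ± 0.12 SE, limma adjusted p = 0.0264). Wasf1, a subunit of the WAVE complex, averaged 8.82 ± 0.84 FPKM in old and 5.51 ± 0.31 FPKM in young pituitary (0.67 ± 0.10, adjusted p = 0.0245). Over the other 2 scalings and the 8 fits that each left out a library, Ptk2b stayed called in 5 of 10 and Wasf1 in 4 of 10.

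Of 36 other cadherins and catenins, 31 were tested and 0 were called by limma, with 5 at an unadjusted p under 0.05, 2 called with voom and a median log2 fold change of 0.017. Ctnna1 and Ctnnb1, the catenins that tie classical cadherins to actin, were the highest of the list, with Ctnnb1 at 49.6 ± 3.5 FPKM in old and 49.5 ± 3.1 FPKM in young pituitary. Of 19 other genes around the clusters, 18 were tested and 0 were called by limma. Among them 6 had an unadjusted p under 0.05 and 1 was called with voom, with a median of 0.18. Both lists stand beside 18.0% higher and 3.79% lower of all genes at an unadjusted p under 0.05, and 6.03% and 1.49% with voom.

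Markers of other cells of the gland differed between the ages beside these results, and their calls are set against 1.86% of all genes called higher and 0.472% called lower. Of the 6 mesenchymal markers, Col1a1 and Col3a1 were called lower and the list summed to 44.1 to 73.3 FPKM in old and 64.2 to 78.0 FPKM in young pituitary. Nefl and Nefm, neurofilament genes of axons, were called lower among the 7 tested of 9 posterior lobe markers, which summed to 4.36 to 11.2 FPKM in old and 5.55 to 10.1 FPKM in young pituitary, with Gfap and Rax under the filter. Of these 7 genes, 3 had a log2 fold change above 0, namely Nefh, Avp and Oxt. Oxt and Avp had 4.68 and 0.892 FPKM in old library 4, against at most 0.231 and 0.0848 FPKM in any other library. Lyz2 was called higher among 6 macrophage markers, which summed to 30.0 to 38.0 FPKM in old and 13.1 to 22.8 FPKM in young pituitary. Mbp was called higher among 2 tested of 4 oligodendrocyte markers, with Mog and Mag under the filter. In the main fit limma called 0 of the 8 endothelial, 8 pericyte and smooth muscle, 5 stem cell and 4 red blood cell markers. At an unadjusted p under 0.05 stood 3 pericyte and 3 stem cell markers, against 18.0% higher and 3.79% lower of all genes. Voom called 1 of each, against 6.03% and 1.49%. With the other 2 scalings 1 and 2 stem cell markers were called lower. Of 8 hormone cell markers Gh and Lhb were called lower. With both other scalings 0 macrophage and 0 oligodendrocyte markers were called, while 3 posterior lobe, 2 mesenchymal and 2 hormone cell markers were lower. Leaving out a library left 0 oligodendrocyte markers called each time, and 1 macrophage marker only without young library 4. Posterior lobe markers stayed called only without young library 2 (2 genes) and young library 4 (1 gene). For mesenchymal and hormone cell markers 1 or 2 stayed called each time. The part of these cell types in the protocadherin results was not tested.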

How the data were processed

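Per the submitters' processing notes, the authors aligned reads with STAR (2.6.1a) to GRCm38, assigned them to genes with featureCounts and computed FPKM with edgeR (3.28.1). For the annotation release and the use of strand, the sources used here give nothing. The deposited FPKM lists were the only values used. The members and lists were chosen with earlier results of these data known.

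Genes that averaged 0.1 FPKM or more were tested with limma (3.58.1, R 4.3.3) on log2(FPKM + 0.1), trend off, with Benjamini-Hochberg adjustment over all of them. The script was tested on simulated data. FPKM, GENCODE M21 exon lengths and library totals gave back whole fragments for 91.3% to 92.1% of low values (within 0.01, under 50 fragments). These fragments were used for voom, and for Pcdha and Pcdhg genes outside the exons common to a cluster, which was added after seeing the data. Exon bases and coordinates come from GENCODE M21.

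Named genes were members called, the 10 clustered and 6 single genes with the highest mean, the C-type genes and members whose call changed in an alternative, while others are said to be named for their values. Alternatives covered the pseudocount (1 and 0.01), the filter (none and 1 FPKM), the trend, 2 scalings, voom, a replicate block and leaving out each library. Figures were drawn with Python 3.11.15 and matplotlib 3.10.9.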

Additional observations from a re-analysis of the deposited data

Results flagged for a closer look

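Within the 4 libraries of an age, a library stood apart from the other 3 by Dixon's test at the 95% level in 9 of 140 groups examined, and chance gives about 1 in 20. Young library 2 was low for Pcdha4 (5.67 FPKM, the nearest library at 7.75), Pcdha9 (6.68, nearest 9.14), Pcdha11.2 (4.52, nearest 6.15) and Pcdhac2 (6.31, nearest 8.17), which share the same common exons and so repeat 1 measurement, and for Pcdhb12 (0.592, nearest 1.02). Old library 3 was high for Pcdhgb6 (59.7 FPKM, nearest 52.4), Pcdhgb7 (56.2, nearest 50.3) and Pcdhgc4 (47.2, nearest 42.0), which repeat 1 measurement in the same way. Old library 4 was high for Pcdh11x (1.66 FPKM, nearest 0.985).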

How the results depend on the processing

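Main counts were 436 higher and 111 lower of all genes, 2 and 0 of the clustered and 0 and 1 of the single protocadherins. Pcdh10 and Pcdhb8 kept their calls in every alternative in which they were tested apart from the block, and Pcdhb8 was not tested with a mean of at least 1 FPKM. With a pseudocount of 1, 689 genes were called higher, and 4 clustered protocadherins higher and 1 lower. With a mean of at least 1 FPKM these were 796, 4 and 1, and with the trend 705 genes were higher and 1 clustered protocadherin lower. Without a filter 263 genes were higher, and with a pseudocount of 0.01 no count moved by over 1.5 times. Without hormone and ribosomal RNA repeat genes in the library size, 212 genes were higher and 189 lower, and with median-of-ratios scaling 206 and 217, with 1 clustered protocadherin lower in each. In these 2 scalings the whole-gene log2 fold change of Pcdhgc3 turned to -0.028 and -0.044. With voom 1359 genes were higher and 335 lower, and 6 clustered protocadherins higher and 1 lower. Outside the common exons 4 clustered protocadherins were higher, and Pcdhac1 (-0.17), Pcdhac2 (-0.11), Pcdhgc3 (-0.44), Pcdhgc4 (-0.28) and Pcdhgc5 (-0.86) turned below 0.

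Among genes near the threshold, Pcdhb14 and Pcdhb16 were called with a pseudocount of 1, a mean of at least 1 FPKM, the trend and voom (adjusted p from 0.00382 to 0.0372 and from 0.0124 to 0.0457), Pcdhb16 also with both other scalings (0.0261 and 0.0216), Pcdhb6 with the first 2 of these and voom (0.00792 to 0.0461), Pcdhb2 with the 1 FPKM filter and voom (0.0496 and 0.0175), and Pcdha11.1 with voom (0.0394).

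Leaving out a library gave 64 to 327 genes higher and 21 to 163 lower, 1 to 3 clustered protocadherins higher and 0 to 1 lower, and 0 higher and 1 lower of the single ones. Same-numbered libraries did not deviate together (correlations -0.037 to 0.037), and no pairing is stated. The deviations were taken from the mean of each age and there are only 4 such pairs, so these values cannot settle whether the numbers pair libraries. With the replicate block 4 genes were called higher and 0 lower, and 0 clustered and 0 single protocadherins, with 3465 genes higher and 908 lower at an unadjusted p under 0.05. Adjusted p was then 0.115 for Pcdh10, 0.111 for Pcdhb8 and 0.132 for Pcdhb11. Beyond fewer genes tested with stricter filters, the cause of these shifts was not tested. Depth limited the C-type and Pcdhb genes, some of which had under 50 fragments in a library.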

Other observations

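The lincRNA 3222401L13Rik (chromosome 18, 37655451 to 37661742, GRCm38) ends 50 bases before the annotated start of Pcdhga1, the first gene of the Pcdhg cluster, on the same strand, and was looked at for this place after its values were seen. It had 2.01, 2.47, 1.64 and 1.66 FPKM in old and 0.915, 0.803, 0.972 and 0.973 FPKM in young pituitary, so every old library was above every young one (log2 fold change 1.00 ± 0.15 SE, limma adjusted p = 0.0244). It stayed called in 5 of the 10 fits with another scaling or without a library, with adjusted p from 0.0386 to 0.0699. Pcdhga1 itself had 0 to 14 fragments outside the common exons in old and 0 to 34 in young pituitary. These are lower limits, counted above the lowest Pcdhg member. That member was Pcdhga1 itself in library 4 of both ages, where its value is 0 by construction.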
